A study of Mus musculus with 81 samples.

Results

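The 2'-5'-oligoadenylate synthetase (OAS) family was followed in macrophages with a conditional deletion of the histone H3.3 genes H3f3a and H3f3b. Its members were chosen by symbol, as Oas1a, Oas1b, Oas1c, Oas1g, Oas2, Oas3, Oasl1 and Oasl2, which are 8 of the 12 Oas and Oasl genes and of 54079 genes listed in every count table. RNA-seq of C57BL/6 mice 8 to 10 weeks old gave 81 libraries in 5 experiments, and the labels placed 79 of them in 27 groups. WT cells carried H3f3a fl/fl and H3f3b fl/fl without Cre. H3.3cKO cells (cKO) carried the same floxed alleles with LysM cre/cre, in which Cre sits in both copies of Lyz2 and acts in macrophages and granulocytes, so that loss of H3.3 cannot be told apart from loss of Lyz2 or presence of Cre. Bone marrow cells were grown in L929-conditioned medium into bone marrow-derived macrophages (BMDMs) and taken on days 3, 5 and 7 (3 WT and 3 cKO libraries per day, the day 3 and day 5 cells being labelled BMDM progenitors). Day 8 BMDMs were untreated or given IFNγ for 12 h (3 WT and 2 cKO libraries each). Freshly isolated peritoneal macrophages came from WT and cKO mice (3 libraries each). BMDMs were also cultured with no antibody, with a control antibody or with an antibody that blocks the type I interferon receptor chain IFNAR1 (3 WT and 3 cKO libraries per arm). The last experiment held 3 sets of WT and cKO BMDMs and the double KOs H3.3cKO:StingKO, H3.3cKO:MavsKO and H3.3cKO:Irf7KO, whose second gene was lost in the germline (3 libraries per group).

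OAS enzymes bind double-stranded RNA and join ATP into short 2'-5'-linked oligoadenylates, a second messenger of the antiviral response that leads to the decay of viral and cellular RNA. Interferon raises the genes of this family in most cells, macrophages among them. Oas1a, Oas1g, Oas2 and Oas3 make active synthetases, and the OAS2 and OAS3 proteins repeat the OAS unit. Oas1b, known as a flavivirus resistance gene, is annotated as a polymorphic pseudogene in this C57BL/6 annotation. Oasl1 and Oasl2 end in ubiquitin-like domains. OASL1 has no synthetase activity and is known to hold down translation of Irf7 mRNA, whereas OASL2 is an active synthetase.

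All 8 genes lie on chromosome 5 of GRCm38 in the GENCODE annotation. Oasl2 (114896936 to 114912234, plus strand) and Oasl1 (114923240 to 114937915, plus) form a pair. The cluster of the others begins with Oas2 (120730333 to 120749853, minus) and Oas3 (120753098 to 120777661, minus). Oas1c (120800194 to 120812514, minus) and Oas1b (120812635 to 120824163, plus) stand head to head with 120 bases between their start sites. Oas1g (120876142 to 120887613, minus) and Oas1a (120896256 to 120907521, minus) follow. The merged exons of these genes span from 1885 bases (Oas1a) to 7069 bases (Oas3).

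Promoter sequences from RefSeq (GRCm38.p6, 250 bases before to 50 after a start site) were matched by symbol for 6 of the 8 members, all but Oas1b and Oas2. They were searched on both strands for the interferon-stimulated response element, spelled GAAA, any 2 bases and GAAA, and the interferon-γ activated site, spelled TTCNNNGAA, and overlapping matches were kept. Of 32851 RefSeq promoter windows, 3.44% held the first and 8.30% the second. The 4 members with a match to the first element are shown, each as 120 bases upstream of the RefSeq start on the strand of its gene, with every match in capitals, because the same letters recur among neighbouring genes.
Oas1a chr5:120907526-120907645 (minus strand): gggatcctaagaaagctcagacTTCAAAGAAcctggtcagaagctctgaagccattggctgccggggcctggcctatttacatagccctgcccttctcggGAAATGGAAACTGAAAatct
Oas1g chr5:120887614-120887733 (minus strand): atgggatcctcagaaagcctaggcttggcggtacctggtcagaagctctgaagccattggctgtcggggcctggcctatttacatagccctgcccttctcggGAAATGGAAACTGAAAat
Oas1c chr5:120812515-120812634 (minus strand): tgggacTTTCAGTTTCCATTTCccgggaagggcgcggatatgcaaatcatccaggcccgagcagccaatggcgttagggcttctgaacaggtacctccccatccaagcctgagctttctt
Oas3 chr5:120777660-120777779 (minus strand): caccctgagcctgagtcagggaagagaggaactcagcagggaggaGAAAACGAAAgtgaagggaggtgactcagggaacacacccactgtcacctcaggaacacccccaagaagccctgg
In Oas1a and Oas1g the capitals close to the start are 2 overlapping matches that join into the 16 bases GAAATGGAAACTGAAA. In Oas1c the same 16 bases stand in the other orientation, between positions 120812613 and 120812628. Seen from the start site of the neighbouring Oas1b, which is read the other way, they lie 22 to 7 bases upstream in the same orientation as in Oas1a and Oas1g. This joined stretch was found in 7 of 32851 windows, those of Oas1a, Oas1c, Oas1g, Apol9a and Apol9b. The first capitals in Oas1a are a match to TTCNNNGAA. The windows of Oasl1 and Oasl2 held neither element, which says only that these letters are not in these windows.

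RNA-seq counts the fragments that fall on each gene. Levels are given as CPM (each count scaled to the total on genes) after TMM scaling, which sets the libraries of an experiment to a common scale, and levels of different genes as CPM per kb of exon. Log2 fold changes, with their standard error (SE), and p-values come from the quasi-likelihood test of edgeR with Benjamini-Hochberg adjustment over all genes tested, and a gene is called at an adjusted p under 0.05. Libraries held 14419697 to 20220329 counts (time course), 3614967 to 10498769 (day 8), 7625225 to 23381318 (peritoneal), 5295144 to 34380735 (antibodies) or 21504555 to 45581528 (sets and double KOs). All 8 members passed the filter on low counts in each experiment. Where the libraries of groups do not overlap for a member, this only describes its values. The share of all genes that separate in this way was not counted. Of the 50-base words in their transcripts, 57.6% in Oas1a and 45.7% in Oas1g also occur in another Oas gene, mainly in each other, so reads between this pair can be lost or uncertain. The share was 9.82% in Oas1c, 1.17% in Oas1b and 0 in the rest. Oas1c also shares 227 exon bases with an antisense gene, and the counts disregard strand.

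In bulk RNA a change in the number of cells and a change in RNA per cell cannot be told apart. H3f3a mRNA of cKO cells stood at 5.90% to 27.1% of WT in the 9 comparisons outside the antibody experiment and at 13.4% to 18.6% within it, and H3f3b at 60.0% to 86.7% outside and 12.1% to 14.5% within it. Lyz2 in cKO was at most 0.291% of WT anywhere. Macrophage markers (Adgre1, Itgam, Csf1r, Cd68, Mertk and Fcgr1) were detected in every group, with sums of 2482 to 11324 CPM. Some libraries stood apart over all genes. WT day 5 replicate 1 and cKO day 5 replicate 1 were nearest to day 7 libraries of their own genotype, and WT day 7 replicate 1 to a cKO day 7 library. The replicates of cKO day 8 with IFNγ lay far from each other, and cKO IFNAR1 antibody replicate 1 was nearest to a WT library of that arm. Every WT IFNAR1 antibody library was nearest to a WT library without antibody. For replicate 3 the SD over genes of the log2 difference was 0.306, against 0.637 within its group. WT replicates 1 and 2 of set 1 were nearest to the same-numbered WT libraries of set 3 (0.327 and 0.265, against 0.359 within their set). The labels do not say whether these sets are independent. A further 2 cKO libraries of day 8 carry IFNγ in only 1 of title and library name, and entered no test.

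On day 3 every member was higher in cKO than in WT cells. The fold ranged from 4.81 for Oas1c to 158 for Oasl1. All 8 were called, against 6.0% of the 15955 genes tested that were called higher, and the median log2 fold change was 4.98 for the members and 0.04 for all genes. For all 8 members the 3 cKO libraries lay above the 3 WT libraries.

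Oasl1, the ubiquitin-like member without synthetase activity, had 1.23, 1.64 and 0.899 CPM in the WT day 3 libraries and 183, 174 and 237 CPM in the cKO libraries. Its log2 fold change was 7.30 (SE 1.12, adjusted p 0.000768 by edgeR), the largest of the family and rank 28 of all tested genes. Oasl2 had 6.68, 3.87 and 2.75 CPM in WT and 362, 305 and 359 CPM in cKO, a log2 fold change of 6.28 (SE 0.89, adjusted p 0.000423). The WT libraries thus held almost no Oasl1 and very little Oasl2, and every cKO library was above all of them.

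Among the synthetases, Oas3 had 21.2, 12.1 and 15.5 CPM in WT and 595, 452 and 528 CPM in cKO on day 3 (a log2 difference of 5.01, SE 0.75, adjusted p 0.000657). OAS3, the longest of the enzymes, is known for making long oligoadenylates. Oas2 had 5.39, 3.28 and 4.04 CPM in WT and 115, 123 and 155 CPM in cKO (4.95, SE 0.60, adjusted p 0.000133). Oas1a had 17.1, 10.1 and 11.1 CPM in WT and 165, 126 and 132 CPM in cKO (3.47, SE 0.57, adjusted p 0.00118). Oas1g, its near copy, had 1.91, 0.997 and 0.842 CPM in WT and 58.9, 47.0 and 58.2 CPM in cKO (5.47, SE 0.81, adjusted p 0.000587). The fold change of Oas1g therefore had a higher estimate than that of Oas1a, with fewer counts behind the WT value.

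The members without known synthetase activity in the OAS1 group rose as well. Oas1b had 1.5, 1.35 and 1.57 CPM in WT and 15.2, 16.6 and 22.2 CPM in cKO on day 3 (a log2 difference of 3.60, SE 0.49, adjusted p 0.000336). Oas1c, whose start site faces that of Oas1b, had 1.77, 1.41 and 0.955 CPM in WT and 6.29, 5.34 and 8.26 CPM in cKO (2.28, SE 0.41, adjusted p 0.00235), the smallest change of the family. Per kb of exon, Oas1a was the highest member in WT (6.78 CPM per kb) and Oasl1 the lowest (0.482), whereas in cKO Oasl1 (75.9), Oas1a (74.7) and Oas3 (74.3) stood side by side above Oasl2 (53.7), Oas2 (29.4), Oas1g (23.4), Oas1b (9.03) and Oas1c (2.76). In rank among all tested genes, the members ran from percentile 25.1 (Oas1g) to 53.9 (Oas3) in WT and from 40.7 (Oas1c) to 99.0 (Oas3) in cKO.

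**Figure D1:**
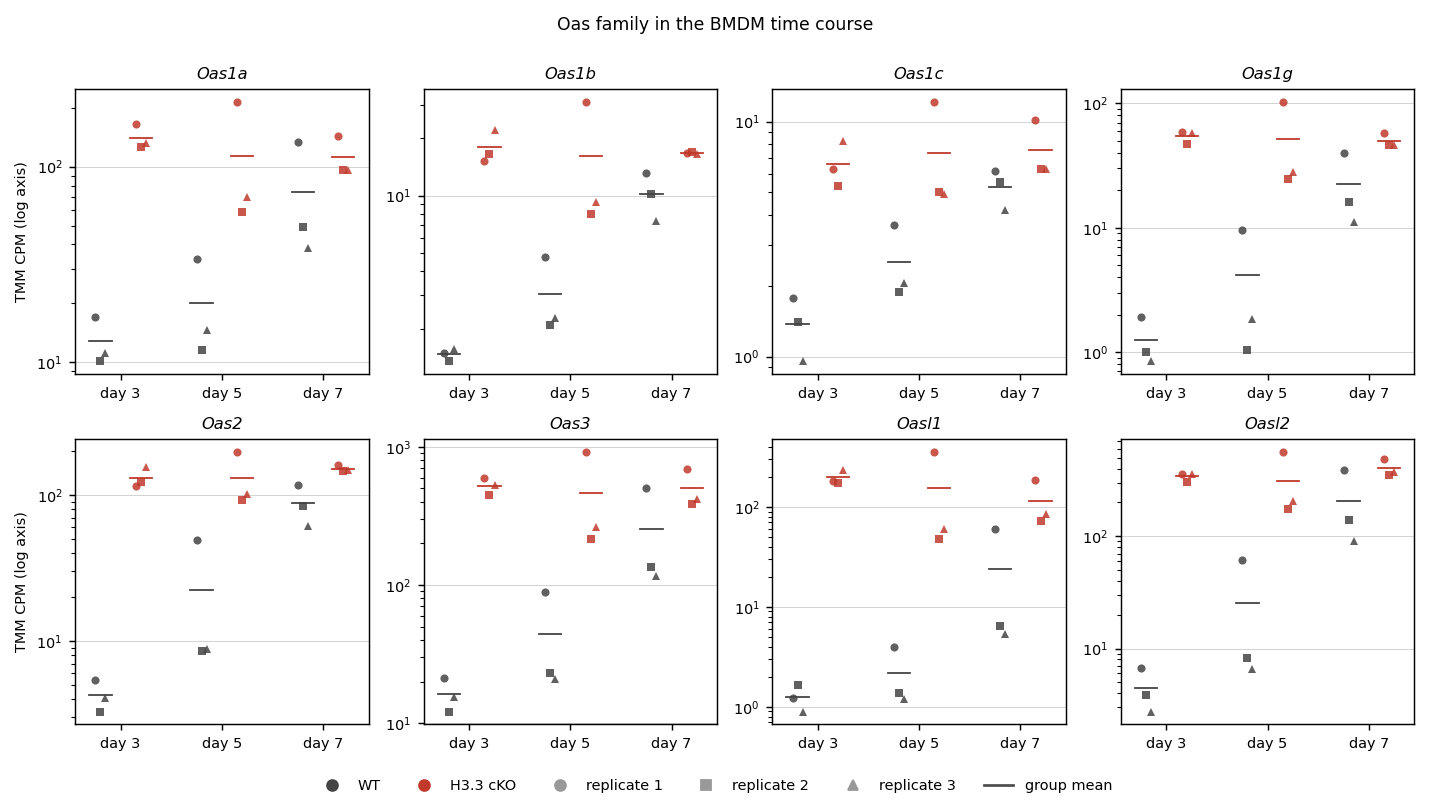
Levels of the 8 members in the time course, in CPM on a logarithmic axis by genotype and day, with a point for each library and a line at the group mean. On day 3 the cKO points lie above the WT points for all 8 members, and by day 7 the WT points have moved up towards them.

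Neutrophil genes stood beside this difference. The sum of 8 neutrophil markers (S100a8, S100a9, Ngp, Camp, Ltf, Mpo, Elane and Ly6g, none at 0) was 1583 to 3038 CPM in WT and 2732 to 4205 CPM in cKO day 3 libraries. By day 7 it had dropped to 74.1 to 131 CPM in WT and 89.9 to 276 CPM in cKO. The sum of 5 B cell markers was 31.6 to 41.2 CPM in WT and 61.7 to 100.2 CPM in cKO on day 3, and their part in the family's difference was not tested. Stromal marker sums (Col1a1, Col1a2, Col3a1, Dcn and Pdgfra) were 13.2 to 42.3 CPM in WT and 67.6 to 95.4 CPM in cKO on day 5, and 4.38 to 40.5 CPM and 86.4 to 124.9 CPM on day 7. B cell sums on day 7 were 57.8 to 193 CPM in WT and 14.3 to 56.4 CPM in cKO, and the part of these genes was not tested either. Leaving out any library kept all 8 calls of day 3.

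The difference was carried into day 5. All 8 members were again called higher in cKO, against 2.46% of all genes, with a member median of 2.97 and a median of 0.01 over all genes. Oasl1 had 3.94, 1.38 and 1.19 CPM in WT and 351, 47.6 and 60.0 CPM in cKO (log2 fold change 6.16, SE 1.04, adjusted p 0.0056 by edgeR). Oas2 had 49.4, 8.56 and 8.82 CPM in WT and 196, 93.2 and 102 CPM in cKO (2.55, SE 0.52, adjusted p 0.014). For these genes replicate 1, the library nearest to day 7, was the highest in both genotypes, and the groups did not overlap for any member. The day 5 calls depended on single libraries. Without WT day 5 replicate 2 or 3 only 1 member was called (member median 2.67 and 2.70), and without cKO day 5 replicate 1 only 2 were (2.30). In a fit of the day 5 groups alone 1 member was called.

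On day 7 none of the 8 members was called by edgeR, against 1.13% of all genes called higher, although all 8 estimates were above 0. They ran from 0.51 (Oas1c, SE 0.34) to 2.24 (Oasl1, SE 0.83, adjusted p 0.182), with a median of 0.88 and of 0.01 over all genes. Unadjusted, 1 member had p under 0.05, and DESeq2 called 0. The cKO libraries lay above every WT library for 5 of the 8, and the share of all genes that separate in this way was not counted. Oasl1 had 60.4, 6.51 and 5.38 CPM in WT and 186, 72.4 and 85.2 CPM in cKO, and Oas3 had 508, 135 and 116 CPM in WT and 695, 388 and 418 CPM in cKO. In either gene WT day 7 replicate 1 was several times above the other WT libraries. Same-numbered replicates 2 of this day deviated together at r = 0.153, below their highest r with another number (0.359), so the pairing is not settled. With the replicate number as a block all the same, Oasl1 was called (2.77, SE 0.57, adjusted p 0.0219 by edgeR) and the other 7 were not. Without WT day 7 replicate 1 it was likewise Oasl1 alone (4.28, adjusted p 0.0151). When that library and the day 5 replicates 1 of both genotypes were left out together, an alternative chosen after seeing the data, 7 of 8 members were called, all but Oas1c (adjusted p 0.128).

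Between day 3 and day 7 the family rose in WT cells, while no member was called in cKO cells. All 8 members were called higher on day 7 in WT, against 12.6% of all genes, and the median of their log2 fold changes was 4.07 (0.05 over all genes). Oas1c changed least (1.95, SE 0.42, adjusted p 0.00423) and Oasl2 most (5.55, SE 0.86, adjusted p 0.000512), the latter from 6.68, 3.87 and 2.75 CPM to 388, 138 and 90.5 CPM. Without WT day 7 replicate 1 Oasl1 was not called (2.23, adjusted p 0.0656). In cKO cells 0 of the 8 were called in edgeR, also 0 at an unadjusted p under 0.05, and DESeq2 likewise called 0, against 14.7% of all genes called in either direction. Their changes there ran from -0.79 (Oasl1) to 0.24 (Oasl2), with a median of -0.09 (0.01 over all genes). Oasl2 had 362, 305 and 359 CPM on day 3 and 485, 350 and 376 CPM on day 7 in cKO.

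The change of the cKO effect from day 3 to day 7 was tested itself. All 8 estimates were negative, from -1.77 (Oas1c, SE 0.54) to -5.31 (Oasl2, SE 1.06), with a median of -4.10 (-0.04 over all genes). No member was called (adjusted p 0.0604 to 0.157 by edgeR), against 0.0439% of all genes called in either direction, whereas all 8 had an unadjusted p under 0.05 and DESeq2 called 6. With the replicate number as a block, 7 of 8 were called lower, beside 23 genes called higher and 132 lower over all genes. Oas3 (-3.84, adjusted p 0.00544 by edgeR) and Oasl2 (-5.20, adjusted p 0.00544) were among the 7, and Oas1c was not called (adjusted p 0.0504). The block takes equal numbers as pairs. WT of days 3 and 7 did not meet the criterion for pairing, with a lowest r of 0.0925. On day 3, replicates 2 of cKO and WT had r = 0.126, below their highest r of 0.214 with another number. Without WT day 7 replicate 1 the count of members was 2 (median -3.01), without WT day 7 replicate 3 it was 5 (-4.35), and without the 3 early or late libraries named above it was 8 (-3.00). Counts over all genes are not given for the DESeq2 fit or for the fits without libraries.

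In day 8 BMDMs without IFNγ, 5 of the 8 members were called higher in cKO cells, against 0.558% of all genes, and the member median was 1.42 (0.01 over all genes). Oasl1 had 9.44, 7.97 and 6.30 CPM in WT and 53.2 and 65.9 CPM in cKO (log2 fold change 2.91, SE 0.20, adjusted p 0.000724 by edgeR). Oas3 had 149, 158 and 125 CPM in WT and 376 and 384 CPM in cKO (1.40, SE 0.18, adjusted p 0.00593). Oasl2 (1.56), Oas1b (1.48) and Oas1g (1.45) were called too, with adjusted p of 0.00574, 0.018 and 0.00827. The remaining Oas1a, Oas1c and Oas2 had 1.79, 1.68 and 2.19 times the WT mean and were not called. Both cKO libraries were above the 3 WT libraries for all 8 members, and the share of all genes that separate in this way was not counted. Without either cKO library only 1 member was called (medians 1.39 and 1.43). If the libraries with conflicting names were placed by their titles, 0 members were called in each of the 4 comparisons between pairs of day 8 groups. Placed by their library names, they gave 5 in untreated cells, 7 between cKO and WT with IFNγ, and 8 for IFNγ in WT and in cKO. The sum of 5 B cell markers was 7.68 to 13.8 CPM in untreated WT and 1.54 to 2.44 CPM in untreated cKO (2 markers at 0 in either group), and with IFNγ it was 11.5 to 25.9 CPM in WT and 3.02 to 3.65 CPM in cKO. Stromal sums were 18.3 to 92.4 CPM and 47.8 to 111 CPM in untreated WT and cKO, and 8.36 to 49.6 CPM and 54.6 to 349 CPM with IFNγ. The part of these markers in the day 8 differences was not tested.

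After TMM scaling, IFNγ for 12 h raised every member in either genotype. In WT cells 8 of 8 were called, against 19.5% of all genes, with a member median of 2.17 (-0.01 over all genes), from Oas1c (0.96, SE 0.26, adjusted p 0.0153) to Oasl1 (4.80, SE 0.21, adjusted p 3.98e-07 by edgeR). Oasl1 went from 9.44, 7.97 and 6.30 CPM to 214, 260 and 188 CPM. In cKO cells 8 of 8 were called as well, against 17.5% of all genes, with a member median of 2.17 (-0.02 over all genes). Here Oasl1 went from 53.2 and 65.9 CPM to 1042 and 1033 CPM (4.12, SE 0.25, adjusted p 5.7e-06), and Oas1c again changed least (0.92, adjusted p 0.0471). The first of these cKO libraries with IFNγ had 57.1% unmapped reads and 3614967 counts on genes, against 12.6% to 18.3% unmapped in the other 9 libraries of these groups. Its closeness to the second rests on the TMM factors, since without them Oasl1 had 477 and 919 CPM in these libraries. Without them Oas2 had 71.6 CPM in the first library, below the 121 and 98.8 CPM of untreated cKO. Oas1c had 3.87 CPM there, below 7.59 and 9.90 CPM. Every other member of the first library was above both untreated cKO libraries without these factors too. Without the first library all 8 members were called with IFNγ in cKO, and Oasl1 changed by 4.15. Per kb of exon Oasl1 of cKO cells with IFNγ, at 398 CPM per kb, was the highest group mean of the family, above Oas3 (178), Oasl2 (177) and Oas1a (172). IFNγ and interferon-β use different receptors.

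With IFNγ in both genotypes, 6 of the 8 members were higher in cKO than in WT, against 3.57% of all genes, with a median of 1.20 (-0.01 over all genes). Oasl1 differed by 2.24 (SE 0.20, adjusted p 0.00114 by edgeR), Oas1g by 1.61, Oas1b by 1.60, Oas1a by 1.43, Oasl2 by 0.96 and Oas3 by 0.92. Without TMM factors, cKO replicate 1 had 520 CPM of Oas3, against 609, 741 and 548 CPM in WT. It had 585 CPM of Oasl2, against 509, 636 and 506 CPM in WT. Its other called members, and all called members in cKO replicate 2, lay above every WT library without these factors too. Oas1a had 114, 137 and 112 CPM in WT and 386 and 263 CPM in cKO. Oas2, uncalled, had 141, 190 and 123 CPM in WT and 156 and 359 CPM in cKO, so 1 cKO library fell within the WT range and 1 above it. Whether IFNγ acted differently in the genotypes was tested as an interaction, and no gene in all was called (0% of 13075). The members' estimates ran from -0.68 (Oasl1) to 0.58 (Oas1a), with 1 unadjusted p under 0.05, and DESeq2 called 0 of them. Without cKO IFNγ replicate 2 the count was 2, with 1 in each direction. In a fit of only the IFNγ groups, 1 member was called between cKO and WT.

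**Figure D2:**
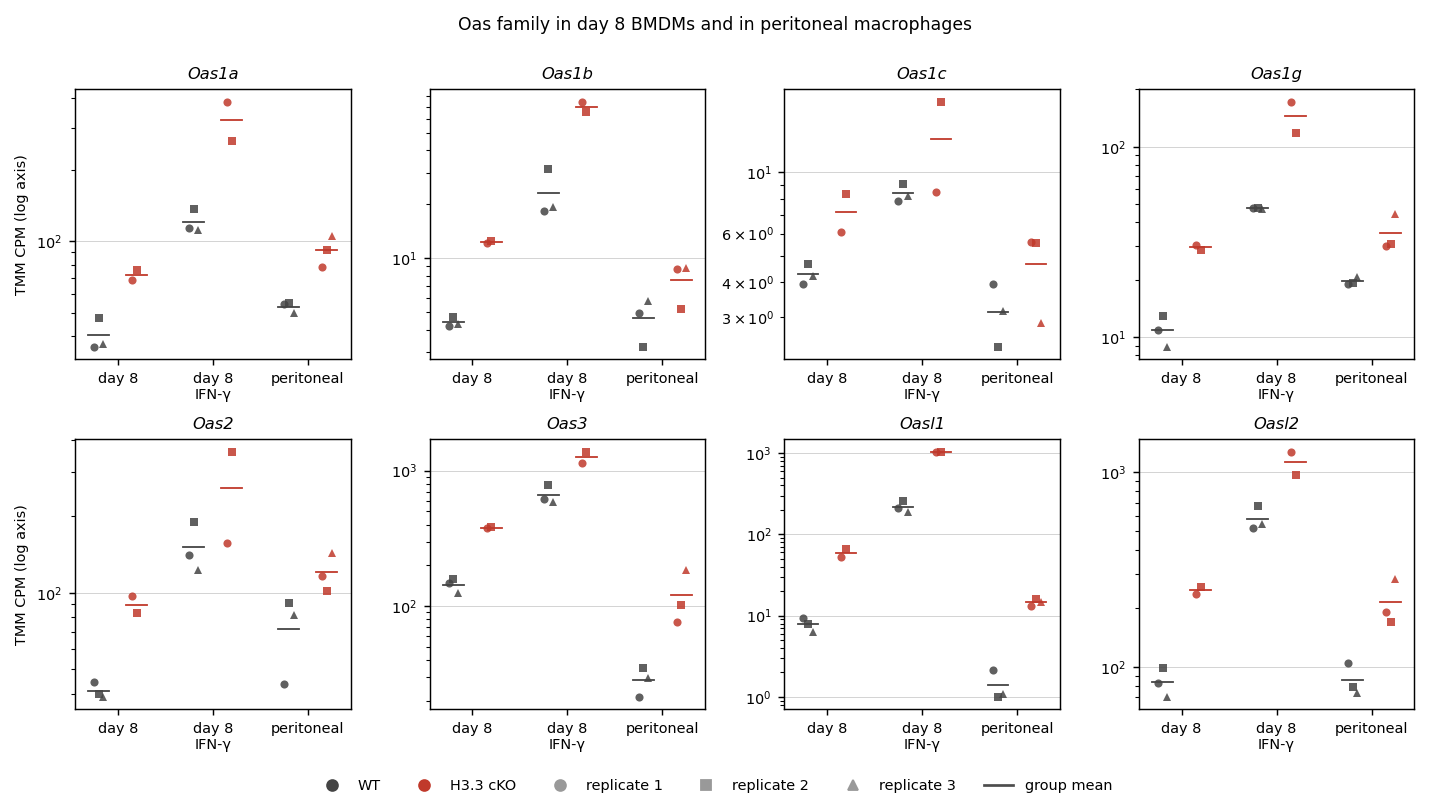
Levels of the 8 members in day 8 BMDMs without and with IFNγ and in peritoneal macrophages, in CPM on a logarithmic axis for WT and cKO cells, with a point for each library and a line at the group mean. After TMM scaling, IFNγ moves all 8 members up in both genotypes, and Oasl1 of cKO cells with IFNγ reaches 1033 to 1042 CPM.

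Peritoneal macrophages taken from mice were compared in the same way. Oas3, Oasl1 and Oasl2 were called higher in cKO, 3 of 8 against 0.639% of all genes, and the member median was 0.81 (0.0045 over all genes). Oasl1 had 2.14, 0.993 and 1.09 CPM in WT and 13.3, 16.05 and 14.8 CPM in cKO (log2 fold change 3.47, SE 0.31, adjusted p 0.00294 by edgeR). Oas3 had 21.4, 35.0 and 29.6 CPM in WT and 77.0, 101 and 186 CPM in cKO (2.07, SE 0.34, adjusted p 0.0281), and Oasl2 had 105, 78.8 and 74.0 CPM in WT and 192, 170 and 284 CPM in cKO (1.32, SE 0.23, adjusted p 0.0394). With the replicate number as a block, which the pairing of these libraries allows, 2 were called, and Oasl2 was not (1.30, adjusted p 0.0807). The other 5 had estimates of 0.64 to 0.83. Groups did not overlap for 6 members. Per kb of exon, Oas1a led in WT peritoneal macrophages (28.3 CPM per kb) and Oasl1 was lowest (0.540), as on day 3 of culture. The markers Gata6, Timd4, Prg4, Selp and Alox15 of resident peritoneal macrophages summed to 23892 to 28734 CPM in WT and 25196 to 26770 CPM in cKO, and to no more than 26.9 CPM in any BMDM library. Without WT replicate 2 or 3 or cKO replicate 2 or 3 only 1 member was called (medians 0.76 to 0.91).

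The antibody experiment asked how far the family depends on signals through IFNAR1. Without antibody all 8 members were higher in cKO, against 4.01% of all genes (member median 2.21, all genes 0.0041). Oasl1 had 2.48, 1.55 and 1.16 CPM in WT and 52.3, 34.3 and 19.4 CPM in cKO (log2 fold change 4.35, SE 0.38, adjusted p 1.66e-05 by edgeR). With control antibody 7 of 8 were called, all but Oas1b (0.96, adjusted p 0.25), against 3.43% of all genes (member median 2.52, all genes -0.00035). Here Oasl1 had 0.210, 0.340 and 0.458 CPM in WT and 24.2, 16.4 and 14.1 CPM in cKO (5.80, SE 0.51, adjusted p 1.00e-05). Without WT no-antibody replicate 3 the first count was 4 (median 1.97).

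Under IFNAR1 antibody 6 of the 8 members were still higher in cKO than in WT, all but Oas1b and Oas1c, against 0.483% of all genes. The member median was 2.80 (-0.0024 over all genes). Oasl1 had 0.5, 0.439 and 0.694 CPM in WT and 9.07, 5.11 and 7.43 CPM in cKO (3.70, SE 0.45, adjusted p 0.000419 by edgeR). Oasl2 had 0.577, 0.816 and 2.27 CPM in WT and 27.8, 13.1 and 13.6 CPM in cKO (3.90, SE 0.61, adjusted p 0.00394), and Oas2 had 1.73, 1.07 and 1.94 CPM in WT and 27.1, 8.18 and 6.96 CPM in cKO (3.14, SE 0.52, adjusted p 0.00774). For 7 members no cKO library fell within the WT range. In most members cKO replicate 1, the library that lay near a WT library over all genes, was the highest. Without WT IFNAR1 antibody replicate 1 the count was 2 (median 2.90), and without replicate 2 it was 3 (2.59). In a fit of these groups alone it was 1.

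Within each genotype members were lower under this antibody. Against control antibody, 6 of 8 members were lower in cKO cells with IFNAR1 antibody, against 2.25% of all genes called lower, with a median of -1.68 (0.0070 over all genes). Oas3 went from 319, 276 and 197 CPM to 103, 25.1 and 24.3 CPM (-2.37, SE 0.49, adjusted p 0.0155 by edgeR), and Oasl2 from 120, 117 and 63.4 CPM to 27.8, 13.1 and 13.6 CPM (-2.45, SE 0.50, adjusted p 0.0143). Oasl1 fell from 24.2, 16.4 and 14.1 CPM to 9.07, 5.11 and 7.43 CPM (-1.36, SE 0.34, adjusted p 0.0293). The groups did not overlap for these 6, and Oas1b and Oas1c were not called. The count was 1 without cKO control antibody replicate 2 (median -1.62) and 3 without cKO control antibody replicate 1 or 3 or cKO IFNAR1 antibody replicate 2 or 3 (-1.46 to -1.87). In a fit of these groups alone it was 1.

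In WT cells 4 of 8 members were lower with IFNAR1 antibody than with control antibody, against 3.84% of all genes, with a median of -1.34 (0.01 over all genes). They were Oas1g (-2.58, adjusted p 0.00949 by edgeR), Oasl2 (-2.05, adjusted p 0.0493), Oas2 (-1.85, adjusted p 0.0409) and Oas1a (-1.26, adjusted p 0.0133). Oas2 went from 6.23, 6.12 and 5.03 CPM to 1.73, 1.07 and 1.94 CPM. Oasl1 was at 0.210 to 0.694 CPM in both arms, and its estimate of 0.73 (SE 0.74, adjusted p 0.493) turned to -0.14 when a single strand column was counted. The count was 1 without WT control antibody replicate 1 or 2 or WT IFNAR1 antibody replicate 1 or 2, and 2 without WT control antibody replicate 3 (medians -1.16 to -1.45), and 0 in a fit of these groups alone. Whether the antibody acted differently in cKO and WT was tested as an interaction, and no gene was called (0% of 17191). For the members 1 unadjusted p was under 0.05, and DESeq2 called 0 of them.

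**Figure D3:**
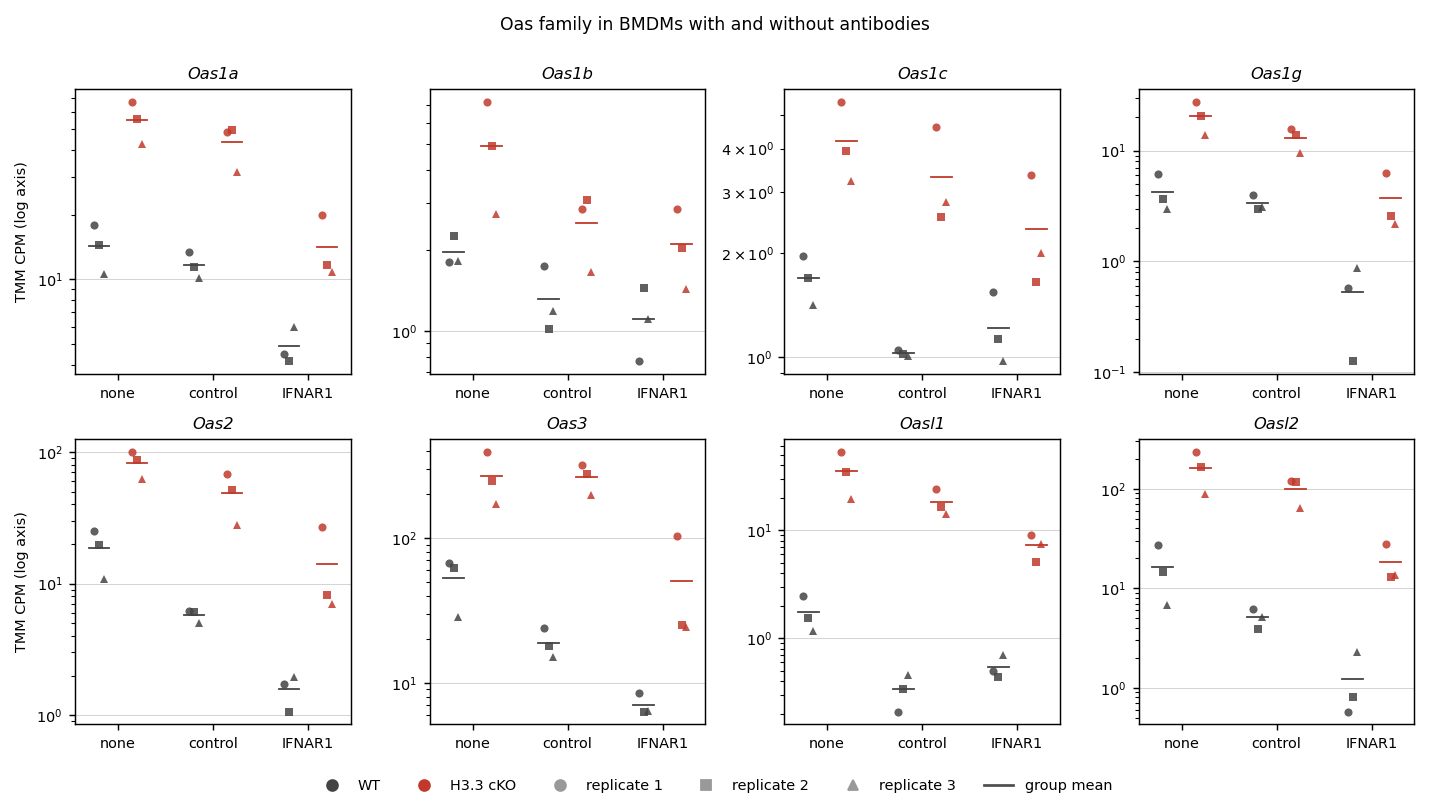
Levels of the 8 members in BMDMs under no antibody, control antibody or IFNAR1 antibody, in CPM on a logarithmic axis for WT and cKO cells, with a point for each library and a line at the group mean. IFNAR1 antibody brings Oasl2 of WT cells to 0.577 to 2.27 CPM and of cKO cells to 13.1 to 27.8 CPM.

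The control antibody was itself compared with no antibody. In cKO cells 0 of 8 members were called in edgeR (2 at an unadjusted p under 0.05, 0 in DESeq2), against 2.09% of all genes in either direction, with a median of -0.68 (0.0052 over all genes). In WT cells Oas2 (-1.67, adjusted p 0.037) and Oasl1 (-2.37, adjusted p 0.0273) were lower with control antibody, 2 of 8 against 5.95% of all genes called lower, with a median of -1.10 (-0.0070 over all genes), and 6 members did not overlap. With the replicate number as a block, 4 were called. Same-numbered libraries of these WT arms deviated together, but the block covers all antibody libraries. For cKO and WT without antibody, replicates 2 had r = -0.134, so the pairing is not settled. Leaving out WT no-antibody replicate 1 or 2 or any WT control antibody library left 0. Stromal markers moved with these arms too, with sums of 35.2 to 77.6 CPM in cKO without antibody, 157 to 291 CPM with control antibody and 41.2 to 84.8 CPM with IFNAR1 antibody, and their part was not tested.

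In each of the 3 sets of untreated BMDMs all 8 members were higher in cKO than in WT, against 17.9%, 10.1% and 17.1% of all 18083 genes tested called higher in sets 1, 2 and 3. The member medians were 1.23, 1.18 and 1.22, and those over all genes -0.03, -0.01 and -0.06. Oasl1 again changed most in every set. It had 7.89, 3.88 and 10.3 CPM in WT and 71.5, 63.8 and 82.9 CPM in cKO of set 1 (log2 fold change 3.34, SE 0.22, adjusted p 1.62e-10 by edgeR). In set 2 it had 13.2, 19.6 and 16.3 CPM in WT and 88.2, 109 and 88.4 CPM in cKO (2.54, SE 0.20), and in set 3 7.25, 4.56 and 7.43 CPM in WT and 58.0, 60.1 and 66.3 CPM in cKO (3.26, SE 0.22). Oas1c changed least in sets 1 (0.62) and 3 (0.43, adjusted p 0.0242), and Oas1a in set 2 (0.62). No WT library reached a cKO library of its set for any member. The sum of neutrophil markers was 59.3 to 120 CPM in WT and 194 to 319 CPM in cKO of sets 1 and 3, and overlapped in set 2 (101 to 176 and 151 to 169 CPM). B cell marker sums were 95.1 to 192 CPM in WT and 37.6 to 59.3 CPM in cKO of sets 1 and 3. In set 2 they went the other way, with 19.3 to 26.4 CPM in WT and 32.0 to 39.2 CPM in cKO. The part of either marker list was not tested.

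The double KOs asked whether the family needs the DNA-sensing adaptor STING, the RNA-sensing adaptor MAVS or the transcription factor IRF7. The labels do not say which set belongs to which double KO, so each was compared with the mean of the 3 sets, and the 3 comparisons share these controls. The targeted mRNA was lower than in cKO for Tmem173, which encodes STING (log2 fold change -3.83), for Irf7 (-1.73) and, slightly, for Mavs (-0.26, adjusted p 0.00414), and a count over all exons of a gene does not show which exons are left. In H3.3cKO:StingKO all 8 members were higher than in cKO, against 19.1% of all genes, though by only 0.42 (Oas2, SE 0.14, adjusted p 0.0164) to 0.64 (Oas1a, SE 0.11, adjusted p 8.85e-05 by edgeR), with a median of 0.54 (0.02 over all genes). Oasl1 had 93.6, 113 and 118 CPM there (0.53, SE 0.15). For 5 members the 3 libraries lay above all 9 cKO libraries. Against set 2 alone, 3 members were called. Stromal marker sums were 163 to 200.4 CPM in H3.3cKO:StingKO, 81.2 to 289 CPM in H3.3cKO:MavsKO, 29.1 to 47.2 CPM in H3.3cKO:Irf7KO and 23.1 to 69.3 CPM in the cKO sets, and their part was not tested.

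No member was called between cKO and H3.3cKO:MavsKO or H3.3cKO:Irf7KO. In H3.3cKO:MavsKO 0 of 8 members were called in edgeR (1 at an unadjusted p under 0.05, 1 in DESeq2), against 9.32% of all genes in either direction, with estimates of -0.01 to 0.40 and a median of 0.10 (0.0033 over all genes). Oasl1 had 89.4, 98.9 and 85.8 CPM, and the 95% interval of its difference was -0.038 to 0.60. In H3.3cKO:Irf7KO 0 of 8 were called (2 at an unadjusted p under 0.05, 0 in DESeq2), against 10.6% of all genes in either direction, with estimates of -0.35 (Oasl1) to 0.26 (Oas1b) and a median of 0.0083 (-0.0043 over all genes). Oasl1 had 65.3, 56.7 and 55.4 CPM there, with an interval of -0.68 to -0.014. H3f3b was lower in H3.3cKO:Irf7KO (77.6 to 158 CPM) than in cKO (-0.73, adjusted p 0.00131), as was H3f3a (-0.91, adjusted p 5.45e-05), and their part was not tested. These intervals are not adjusted for the number of genes, and one that holds 0 does not show equal levels. Without cKO set 1 or set 3 replicate 3, 1 member was called in H3.3cKO:MavsKO.

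Every double KO stayed above WT. All 8 members were higher than in the WT sets in H3.3cKO:StingKO, H3.3cKO:MavsKO and H3.3cKO:Irf7KO, against 20.5%, 22.1% and 15.1% of all genes, with member medians of 1.69, 1.25 and 1.25 (-0.03, -0.04 and -0.01 over all genes). Oasl1 differed from WT by 3.57, 3.33 and 2.70 (SE 0.15 each). Its libraries ran from 55.4 to 118 CPM in the double KOs and from 3.88 to 19.6 CPM in the 9 WT libraries.

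**Figure D4:**
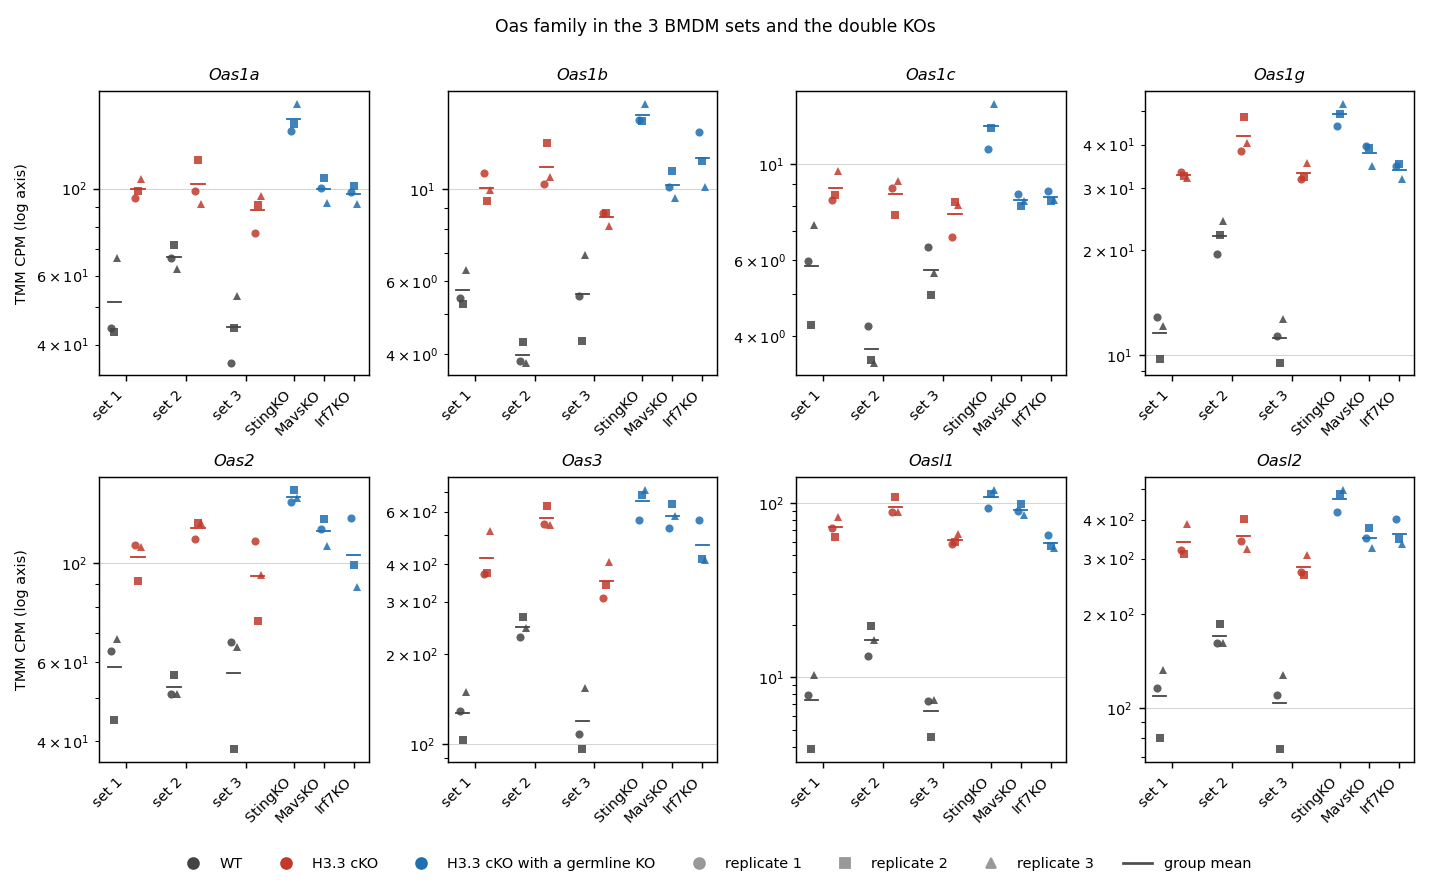
Levels of the 8 members in the 3 sets of WT and cKO BMDMs and in the double KOs, in CPM on a logarithmic axis with a point for each library and a line at the group mean. For Oasl1 the double KO points lie at 55.4 to 118 CPM, above the WT points of the 3 sets at 3.88 to 19.6 CPM, and for 5 members the H3.3cKO:StingKO points lie above all 9 cKO points.

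**Figure D5:**
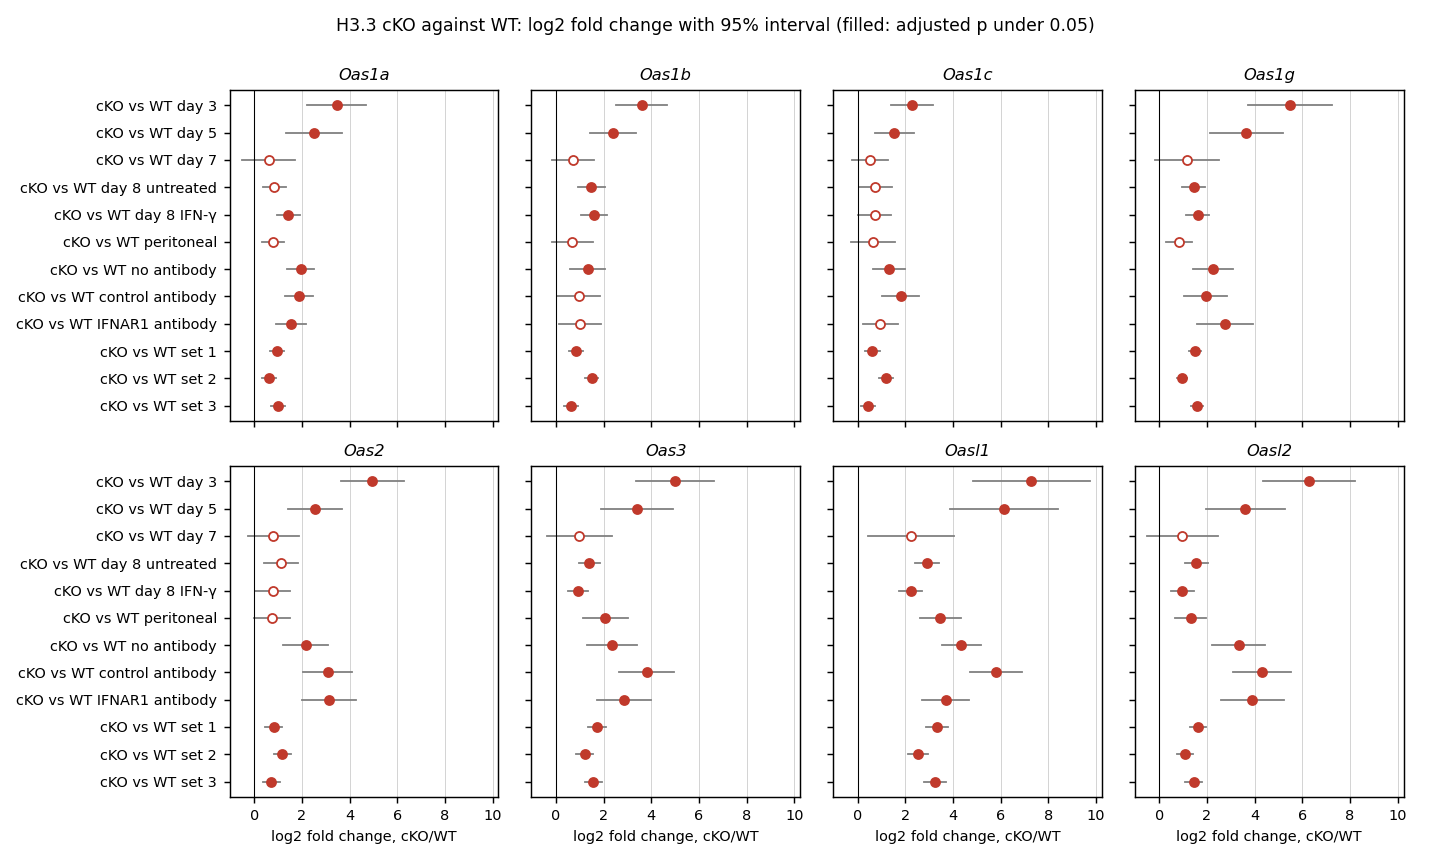
Log2 fold changes of the 8 members for the 12 comparisons of cKO with WT, with 95% intervals as bars and filled points for an adjusted p under 0.05. Oasl1 lies farthest to the higher side on day 3 (7.30) and in each set (2.54 to 3.34).

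Across all 27 groups Oasl1 had the widest span. Its mean was lowest in WT with control antibody (0.336 ± 0.124 CPM, SD, n = 3) and WT with IFNAR1 antibody (0.544 ± 0.133), followed by WT on day 3 (1.26 ± 0.373), WT peritoneal macrophages (1.41 ± 0.632) and WT without antibody (1.73 ± 0.675). It was highest in cKO with IFNγ (1042 and 1033 CPM, or 477 and 919 CPM without TMM factors), then in WT with IFNγ (220 ± 36.7) and in cKO on day 3 (198 ± 33.8), which overlapped. Experiments were scaled separately, so this order is a description.

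Oas1d, Oas1e, Oas1f and Oas1h, the other Oas1 genes, were low or absent. Oas1d, Oas1e and Oas1f had group means of at most 0.302 CPM. Oas1h was at 0 in all 3 WT day 3 libraries and had 1.70, 1.71 and 2.82 CPM in cKO, which is at least 35.0-fold higher than a floor of 3 counts over the WT group. Its cKO libraries with IFNγ had 26.6 and 4.95 CPM.

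Other genes linked to 2'-5' oligoadenylates were measured beside the family. Pde12 encodes a phosphodiesterase that can degrade these oligoadenylates, Akap7 a protein with a related domain, and Abce1 a protein best known for recycling ribosomes. None of Pde12, Akap7 and Abce1 was called between cKO and WT on day 3, 5 or 7, in untreated day 8 cells, in peritoneal macrophages or in any antibody arm. Pde12 was higher in cKO in sets 1 and 3 (0.57 and 0.58) and at -0.16 in set 2 (adjusted p 0.217 by edgeR). Abce1 was higher in sets 1 and 3 (0.93 and 0.85) and at -0.30 in set 2 (adjusted p 0.142), and with IFNγ it was lower in cKO than in WT (-1.49, adjusted p 0.0048). IFNγ lowered Abce1 in WT (-0.78, adjusted p 0.0040) and cKO (-2.16, adjusted p 6.8e-05). These genes are described singly, and nothing is read from them about other genes of this pathway.

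Other sensors of nucleic acid moved with the family on day 3. Of a list of 10, 8 were higher in cKO and 0 lower (median 1.77), beside 958 higher of all 15955 genes tested. They included Zbp1, a sensor of Z-form nucleic acid (6.0, adjusted p 0.00337 by edgeR), Ddx58, which encodes RIG-I (3.67, adjusted p 0.000426), Ifih1, which encodes MDA5 (2.47, adjusted p 0.00118), and Eif2ak2, which encodes the kinase PKR (1.73, adjusted p 0.000921). Cgas and Mavs were not called. On day 5 the count was 6 of 10, beside 2.46% of all genes called higher. On day 7 it was 0 (median 0.59), near the share of 1.13% over all genes. Untreated day 8 cells had 1, Zbp1 (2.37, adjusted p 0.00341 by edgeR), beside 0.558% of all genes. Peritoneal macrophages, where Oas3, Oasl1 and Oasl2 were called, had 0 (median 0.67), near the share of 0.639% over all genes. Without antibody the count was 6, with control antibody 5 and with IFNAR1 antibody 0 (median 0.64), beside 4.01%, 3.43% and 0.483% of all genes. In the sets 8, 9 and 8 were higher, with 1, 0 and 1 lower, where 17.9%, 10.1% and 17.1% of all genes were higher. Between cKO and WT with IFNγ 1 of the 10 was higher, Ddx58 (1.12, adjusted p 0.0361 by edgeR), beside 3.57% of all genes.

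Of 16 genes of interferon signalling, 8 were higher and 1 lower in cKO on day 3 (median 0.46). Over all 15955 genes tested, 958 were higher and 422 lower. Irf7, the transcription factor of the interferon amplification loop, rose by 6.61 (adjusted p 0.000872 by edgeR), Usp18, which restrains the receptor, by 5.82 (adjusted p 0.000382), and Irf9 by 1.75 (adjusted p 6.83e-05). By day 7 there was no call in this list (median -0.036), near the share of 1.13% of all genes called higher. In peritoneal macrophages Irf7 alone was higher (1.86, adjusted p 0.00294 by edgeR), beside 0.639% of all genes. Under IFNAR1 antibody Irf7 (3.24, adjusted p 0.0259) and Usp18 (2.13, adjusted p 0.0359) were higher, beside 0.483% of all genes. In H3.3cKO:Irf7KO 6 of the 16, Irf7 itself among them, were lower than in cKO and 0 higher, beside 1040 lower of all 18083 genes tested. Of 21 interferon ligands only Ifnb1 passed the filter on low counts in the time course, and it was called higher in cKO on day 3 (adjusted p 0.00801 by edgeR). Ifnb1, which encodes interferon-β, had 1 count over the 3 WT and 73 over the 3 cKO libraries of day 3, 33 in cKO on day 5 and 13 in cKO on day 7. With IFNγ it had 4 counts in WT and 62 in cKO, and was not tested there. Elsewhere it was almost absent in both genotypes. WT and cKO had 2 and 3 counts in untreated day 8 cells, 0 and 1 in peritoneal macrophages and 0 and 1 without antibody. They had 1 and 1 with control antibody and 5 and 7 with IFNAR1 antibody. The cKO of sets 1, 2 and 3 had 4, 2 and 9 counts, and each WT set had 0.

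Members followed each other closely over the 79 libraries. The correlation of log2 CPM, centred within each experiment, ran from 0.847 to 0.974 between pairs of members, and from 0.912 (Oas1c) to 0.983 (Oasl2) between a member and the mean of all 8. Among 11170 genes, those most like this mean were Ifi44 and Xaf1 (r = 0.972 each), Irf7 (0.971), Usp18 (0.968), Lgals3bp (0.962), Ifi213 (0.960), Ifit3 (0.959), Ifi211 (0.958), Ifi204 (0.955) and Gbp9 (0.949). These libraries share genotypes, treatments and scaling, so the values are a description.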

How the data were processed

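Libraries of BMDMs were made by the authors after rRNA depletion with NEBNext Ultra II, and those of peritoneal macrophages with SMART-Seq v4. Reads were paired end from a NextSeq, trimmed with Cutadapt and aligned to mm10 with STAR, with versions not given in the sources used here. The deposited values are raw counts per gene, as STAR writes them, and the unstranded column was used. Rows for unmapped, multimapping, featureless or ambiguous reads stayed out of library sizes and tests. The gene list of the time course equals GENCODE M21.

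Each experiment was analysed separately in edgeR 4.0.16 (R 4.3.3) with filterByExpr (min.count 10, min.total.count 15), TMM factors, a model with a mean for each group of the experiment, and the quasi-likelihood test. P-values were adjusted by Benjamini-Hochberg over all genes tested and called under 0.05. The SE was the log2 fold change over the square root of F. P-values measure the spread between samples labelled as replicates. No pair of libraries had equal counts within sampling noise. The members and lists were chosen with earlier results of these data known, and the text names all 8 members, other Oas genes where detected, the called or defining genes of the lists and the 10 genes most like the members' mean. Likeness used log2 CPM with a prior count of 2.

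Same-numbered libraries deviated together (every r over 0.1) for cKO and WT on day 3 (r = 0.419, 0.126 and 0.252) and day 7, for cKO on days 3 and 7, for WT with and without IFNγ, for peritoneal macrophages and for WT with and without control antibody. For replicate 2, r was higher with another number than with its own between cKO and WT on day 3 (0.214) and day 7 (0.359 against 0.153). The same held between cKO of days 3 and 7 (0.339 against 0.138). On day 5 cKO and WT did not meet the criterion, with r = -0.0232 for replicate 2. The pairing comes from the numbers in the labels and this check alone, so it is not settled. The alternatives were DESeq2 1.42.0, RLE factors, other filters, the replicate block, a single strand column, only the groups compared, each set as reference, both placements of the 2 conflicting libraries and leaving out each library. Leaving out 3 time course libraries together and crossing the numbers of the cKO IFNγ libraries were added after seeing the data. The fits were tested on simulated data. Some genes of the lists are not reported here.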

Additional observations from a re-analysis of the deposited data

Results flagged for a closer look

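A pair of cKO libraries of day 8 carry IFNγ in only 1 of title and library name, so they entered no comparison. The library titled IFNγ and named untreated had 46.1 CPM of Oasl1, from 9674853 counts on genes. The library titled untreated and named IFNγ had 1043 CPM of Oasl1, from 10498769 counts. Scaled with them, Oasl1 was at 6.40 to 9.59 CPM in untreated WT, 54.1 to 67.4 CPM in untreated cKO, 191 to 262 CPM in WT with IFNγ and 1016 to 1044 CPM in cKO with IFNγ. Both libraries were singled out because title and library name disagree. In both, all 8 members lay above the highest untreated WT library. In the first 0 of 8 members lay above the highest WT library with IFNγ, and in the second 8 of 8 did. Neither library was assigned to a group from these values.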

How the results depend on the processing

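Of 459 alternative counts of called members, 396 stayed within 1.5 times the reported count and 63 moved. DESeq2 gave 6 for the change of the cKO effect from day 3 to day 7 (reported 0), 5 for peritoneal macrophages (3), 4 for WT control against no antibody (2) and 1 for H3.3cKO:MavsKO against cKO (0). Without a filter on low counts these were 4 for the change, 6 for peritoneal macrophages and 1 for H3.3cKO:MavsKO, and a mean of at least 1 CPM also gave 1 for H3.3cKO:MavsKO. With the replicate number as a block the counts were 7 for the change, 1 on day 7 (0), 4 for WT control against no antibody and 1 for H3.3cKO:MavsKO, and no other count moved by over 1.5 times. For IFNγ in cKO the block gave 7 (8), and 7 as well with the numbers of the cKO IFNγ libraries crossed. A single strand column gave 1 for WT control against no antibody, and turned Oasl1 in WT with IFNAR1 against control antibody from 0.73 to -0.14, the only reversal among 3965 single-gene alternatives. Fits of only the groups compared gave 6 for the change, 1 on day 5 (8), 1 for cKO against WT with IFNγ (6), 1 under IFNAR1 antibody (6), 1 for cKO IFNAR1 against control antibody (6), 0 for the same in WT (4), 2 for H3.3cKO:MavsKO and 1 for H3.3cKO:Irf7KO (0), with fewer samples behind the spread. Placing the conflicting day 8 libraries by their titles gave 0 for untreated cells (5), for cKO against WT with IFNγ (6) and for IFNγ in WT (8) and cKO (8), whereas by their library names these were 5, 7, 8 and 8. Set 2 alone as reference gave 3 for H3.3cKO:StingKO (8) and 2 for H3.3cKO:Irf7KO, and set 3 alone gave 2 for H3.3cKO:MavsKO. The cause of these moves was not tested, except where fewer samples entered.

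Leaving out libraries gave 8 to 8 on day 3, 1 to 8 on day 5, 0 to 7 on day 7, 7 to 8 for WT and 0 to 0 for cKO from day 3 to day 7, and 0 to 8 for the change between them. On day 8 it gave 1 to 4 in untreated cells, 4 to 8 with IFNγ, 7 to 8 for IFNγ in WT, 6 to 8 for IFNγ in cKO and 0 to 2 for their difference. Peritoneal macrophages gave 1 to 2. In the antibody experiment it gave 4 to 8 without antibody, 5 to 7 with control and 2 to 6 with IFNAR1 antibody, 1 to 5 for IFNAR1 against control in cKO, 1 to 4 in WT and 0 to 0 for their difference, and 0 to 0 in cKO and 0 to 3 in WT for control against none. Sets 1, 2 and 3 gave 8 to 8, 8 to 8 and 7 to 8. Against cKO the double KOs gave 6 to 8 (StingKO), 0 to 1 (MavsKO) and 0 to 0 (Irf7KO), and against WT 8 to 8 each. Low counts, at most 49 a library, limit Oasl1, Oas1b and Oas1c in all WT arms of the antibody experiment and also Oas1g, Oas2 and Oasl2 in WT with IFNAR1 antibody.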
